A study of Rattus norvegicus with 18 samples.

Results

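The lungs of rats killed 2 h after their last cigarette smoke session were set against the lungs of rats killed 2 h after their last sham session. These conditions were chosen by their titles and make up 6 of the 18 arrays of the series, 3 on array type A and 3 on array type B. On each type there was 1 array of smoke at 300 µg TPM/l, 1 of smoke at 600 µg TPM/l and 1 of sham, where TPM is the total particulate matter of the smoke. The remaining arrays hold the same 3 exposures at 6 and 20 h after the last session. All animals were male Sprague-Dawley rats, an outbred strain, placed in nose-only exposure for 2 h per day on 5 days per week over 13 weeks. The smoke came from the 2R4F reference cigarette, and the sham animals went through the same schedule without it. The age of the animals and the number of animals behind each array are not given in the sources used here. Whole lung RNA was measured, so the values cover all cell types of the organ at once.

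Cigarette smoke carries polycyclic aromatic hydrocarbons, which bind the aryl hydrocarbon receptor (AhR). The bound receptor moves to the nucleus, pairs with ARNT and switches on genes that oxidise and conjugate foreign compounds, among them Cyp1a1 and Cyp1b1, until these enzymes have cleared the ligand. Smoke oxidants and aldehydes also release the transcription factor NRF2 from its inhibitor KEAP1, and NRF2 then raises genes of glutathione synthesis, conjugation and NADPH supply. In the lung these responses are known from airway epithelium, endothelium and macrophages.

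A difference was called where limma's adjusted p was under 0.05 and both smoke arrays lay on one side of the sham array of that time. Differences are on the log2(signal + 50) scale throughout, and a difference of 1 on this scale is close to 2-fold for bright genes and understates the ratio of signals for dim ones. With 1 sham array at 2 h, the spread behind each SE is that between the smoke levels at 2, 6 and 20 h. The SE therefore holds no measured variation between sham animals, and for that reason the sham arrays of 6 and 20 h are set beside many of the genes. The smoke levels share the sham array, so their differences from it are not independent of each other. On type A the control 3'/5' ratios at 2 h were 1.10 and 1.11 in smoke and 1.09 in sham for GAPDH, and 3.07 and 3.05 in smoke and 2.62 in sham for hexokinase. In the sham arrays of 6 and 20 h the hexokinase ratios were 4.52 and 3.17, and that of 6 h was the highest on type A.

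On type A 15 of 10115 probe sets were called, 13 higher in smoke (0.129% of those tested) and 2 lower (0.0198%), while 877 had an unadjusted p under 0.05. The 15 comprised 13 genes, and 2 further probe sets that carry several gene symbols each. Both smoke arrays were at least 2-fold off the sham array for 14 of the 15. Of these 15, 13 also lay outside the sham arrays of 6 and 20 h, as did 13.9% (higher) and 15.7% (lower) of all probe sets tested. The genes called higher were Cyp1a1, Aldh3a1, Cyp1b1, Chia, Nqo1, Osgin1, Per2, Xylt2, Epas1, Cytl1 and Cxcr1, and the genes called lower were Spon2 and RT1-N2. With either smoke array at 2 h left out, Cyp1a1, Aldh3a1, Nqo1 and Cyp1b1 were still called (limma adjusted p of at most 0.0377, for Cyp1b1 without 600 µg TPM/l). The calls of Chia, Per2, Xylt2, Epas1, Cytl1, Cxcr1 and Spon2 were lost without either array, at adjusted p between 0.0546 (Spon2 without 300 µg TPM/l) and 0.368 (Cxcr1 without 600 µg TPM/l), with differences of the same sign. Osgin1 lost its call without the 600 µg TPM/l array (adjusted p = 0.0914) and RT1-N2 without the 300 µg TPM/l array (adjusted p = 0.0541).

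**Figure D1:**
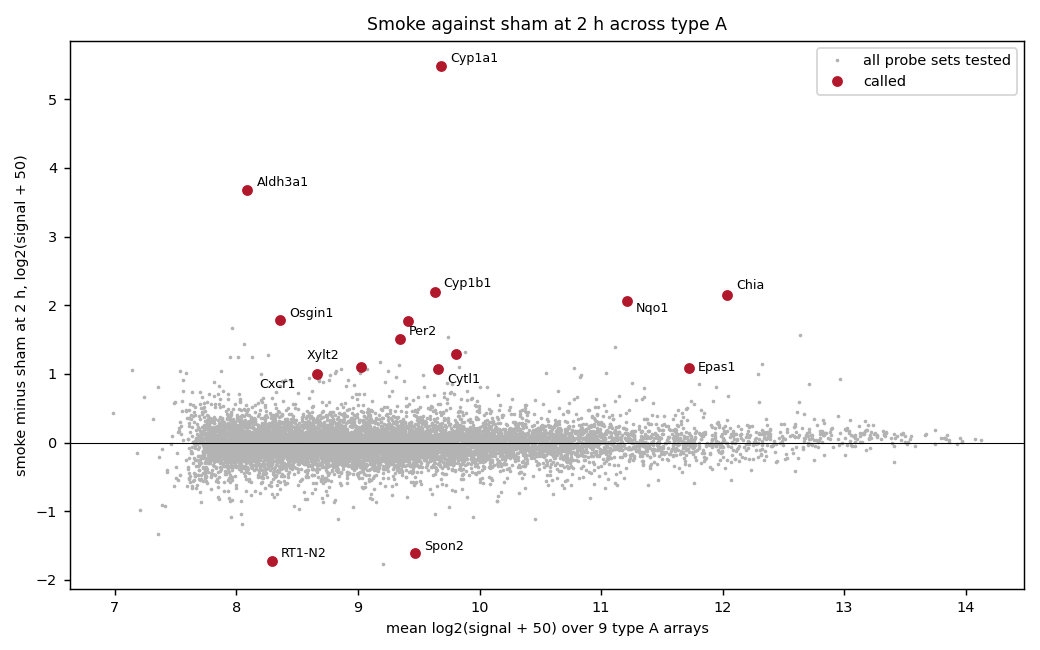
Each grey point is 1 of the 10115 probe sets tested on type A, with the mean log2(signal + 50) over 9 arrays on the x axis and the difference of smoke minus sham at 2 h on the y axis; red points are the 15 called probe sets. Cyp1a1 at 5.49 and Aldh3a1 at 3.68 stand above all other probe sets, and Spon2 and RT1-N2 are the called ones below 0.

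Genes induced through AhR had the 3 largest differences. Cyp1a1, the P450 that oxidises polycyclic aromatic hydrocarbons, had a signal of 8795 at 300 and 9463 at 600 µg TPM/l, against 154 in sham. Both smoke arrays were far above every sham array, since sham read 111 at 6 h and 102 at 20 h. The sham signals were under 184.3, the 40th percentile of type A used as the filter on dim probe sets, so a ratio of signals is not given, and the difference was 5.49 ± 0.16 (SE, adjusted p = 1.33e-06 by limma). Aldh3a1, an aldehyde dehydrogenase that removes reactive aldehydes, had 1225 and 1747 in smoke at 300 and 600 µg TPM/l, against 68.4 in sham. Its sham signals at 6 and 20 h, 86.8 and 89.8, were as low, and it rose by 3.68 ± 0.26 (SE, adjusted p = 9.13e-04 by limma). Cyp1b1, a related P450 that is expressed more outside the liver, had 2008 and 2725 in smoke, against 474 in sham. With sham signals of 408 and 437 at the other times the groups did not overlap, and it rose by 2.19 ± 0.20 (SE, adjusted p = 4.64e-03 by limma).

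Nqo1, a quinone reductase switched on by AhR as well as by NRF2, had 4750.5 and 5959 in smoke at 300 and 600 µg TPM/l, against 1234 in sham. The sham signals at 6 and 20 h, 1394 and 1389, were close to that at 2 h and all smoke signals at 2 h were above them. Nqo1 rose by 2.06 ± 0.15 (SE, adjusted p = 9.13e-04 by limma). The 2 called probe sets with several symbols both carry those of 8 UDP-glucuronosyltransferase genes of the Ugt1a family, enzymes that conjugate phenols and bilirubin with glucuronic acid, and cannot be given to 1 of them. One had 1091 and 1274 in smoke against 311 in sham, and the other 1458 and 1486 in smoke against 575 in sham. Both were higher at each smoke level, by 1.77 ± 0.16 (SE, adjusted p = 4.64e-03 by limma) and 1.28 ± 0.12 (SE, adjusted p = 5.56e-03).

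**Figure D2:**
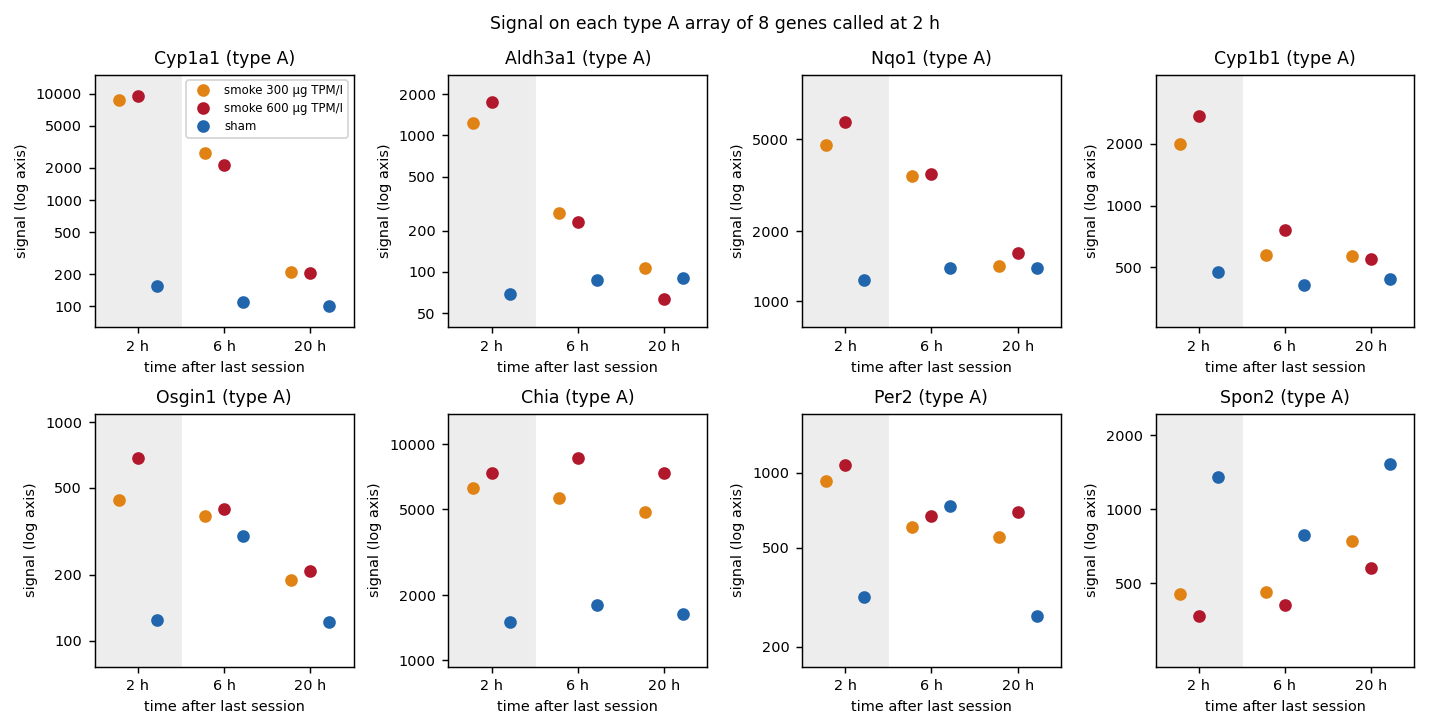
Signal on a log axis for 8 genes on the 9 type A arrays, with time after the last session on the x axis, smoke at 300 µg TPM/l in orange, smoke at 600 µg TPM/l in red, sham in blue and the 2 h arrays shaded; each point is 1 array. Cyp1a1, Aldh3a1, Nqo1 and Cyp1b1 are highest in smoke at 2 h, Chia is above sham at every time, and the sham level of Per2 differs between times (317 at 2 h, 732 at 6 h, 266 at 20 h).

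Of the AhR list, 6 members were measured on type A: 4 rose and 2 did not pass the test, while 0.135% of all genes were called higher and 0.0269% lower. Cyp2s1, a P450 of epithelia, differed by 0.15 ± 0.14 (SE), and Tiparp, a mono-ADP-ribosyltransferase that feeds back on AhR, had 1145 and 1115 in smoke against 1016 in sham. The Tiparp smoke arrays lay within the sham arrays, which read 1211 at 6 h and 1064 at 20 h. The median difference of the list was 2.13, against -0.01 over all 7433 genes tested. Por, the reductase that passes electrons to P450 enzymes and is no member of the list, was picked out after its values were seen. It had 1418 and 1544 in smoke against 823 in sham and just missed the threshold (0.81 ± 0.12, SE, adjusted p = 0.0529 by limma). Sham read 1130 at 6 h and 708 at 20 h.

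The promoters of AhR genes that a RefSeq table on build GRCr8 holds, 250 bases before to 50 after the start, were searched on both strands for GCGTG, the core of the element that AhR and ARNT bind. The core was found in all 4 of the promoters that the table gave for named AhR genes (Cyp1b1, Nqo1, Ahrr and Tiparp) and in 29.7% of all 33469 promoters. A match is a description of these letters and was present in Tiparp too, which was not called. Promoters of Cyp1b1 (chr6:21094315-21094614, + strand, 2 matches) and Nqo1 (chr19:52220218-52220517, - strand, 1 match) are shown because these genes were called, and that of Ahrr (chr1:30821969-30822268, + strand, 3 matches) because it encodes the repressor of AhR. Capitals mark GCGTG, or CACGC where the core lies on the other strand.
Cyp1b1: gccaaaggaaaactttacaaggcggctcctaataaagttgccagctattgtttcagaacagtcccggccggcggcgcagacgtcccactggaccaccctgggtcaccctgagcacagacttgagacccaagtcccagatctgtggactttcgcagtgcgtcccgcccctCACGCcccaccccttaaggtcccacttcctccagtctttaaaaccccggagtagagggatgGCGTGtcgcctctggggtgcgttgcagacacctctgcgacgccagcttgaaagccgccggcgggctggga
Nqo1: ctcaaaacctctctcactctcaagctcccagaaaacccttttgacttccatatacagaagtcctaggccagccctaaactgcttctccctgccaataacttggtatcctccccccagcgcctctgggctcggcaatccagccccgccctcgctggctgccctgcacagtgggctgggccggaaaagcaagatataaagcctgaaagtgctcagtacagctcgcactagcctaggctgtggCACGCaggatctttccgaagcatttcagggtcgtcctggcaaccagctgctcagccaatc
Ahrr: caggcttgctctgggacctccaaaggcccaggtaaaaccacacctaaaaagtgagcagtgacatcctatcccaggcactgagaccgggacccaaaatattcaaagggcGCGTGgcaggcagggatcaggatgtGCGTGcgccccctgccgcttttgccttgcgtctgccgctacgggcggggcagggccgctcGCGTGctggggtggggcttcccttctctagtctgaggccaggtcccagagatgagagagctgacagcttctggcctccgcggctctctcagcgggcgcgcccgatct

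In the NRF2 list 1 of 24 measured genes passed the test, and most of the others lay above sham without passing it. Osgin1, an oxidative stress response gene that restrains growth, had 442 and 682 in smoke at 300 and 600 µg TPM/l, against 124 in sham. Both smoke arrays were above the sham arrays of 6 h (302) and 20 h (122), and it rose by 1.78 ± 0.22 (SE, adjusted p = 0.0209 by limma). Both smoke arrays were above the 2 h sham array for 21 of the 24 genes, against 33.6% of all genes, and above all 3 sham arrays for 18 of the 24, against 14.1% of all genes. The median difference was 0.48.

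Of the NRF2 genes that did not pass, several serve peroxiredoxin repair and glutathione synthesis. Srxn1, which restores oxidised peroxiredoxins, had 321 and 484 in smoke, against 138 in sham. Gclm, the modifier subunit of the enzyme that limits glutathione synthesis, had 545 and 777 in smoke, against 289 in sham, and Gclc, its catalytic subunit, had 588 and 718 in smoke, against 380.5 in sham. In these 3 genes the 600 µg TPM/l array was above the 300 µg TPM/l array and both were above all sham arrays (adjusted p = 0.128, 0.116 and 0.296 by limma).

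Akr1b8, an aldo-keto reductase, had 901 and 987 in smoke, against 392 in sham (1.17 ± 0.20, SE, adjusted p = 0.0982 by limma). Hmox1, the haem-degrading enzyme, had 762 and 1276 in smoke, against 455 in sham (1.04 ± 0.31, SE, adjusted p = 0.36). Both lay above all sham arrays at each smoke level. Nfe2l2, which encodes NRF2 and was picked out after its values were seen, had 2152 and 2312 in smoke, against 1397 in sham (0.66 ± 0.11, SE, adjusted p = 0.0804). Its sham arrays of 6 and 20 h were higher than that of 2 h, at 1758 and 1512. The antioxidant element core TGACNNNGC, with N for any base, was found in 1 of 5 promoters of the named NRF2 genes, that of Gclm, and in 12.1% of all promoters.

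Mt2A, a metallothionein that binds zinc and cadmium, had 1416 and 2243 in smoke at 300 and 600 µg TPM/l, against 579 in sham. The sham arrays were spread widely, at 436 at 6 h and 139 at 20 h, but all were below the smoke arrays. The difference of 1.54 ± 0.33 did not pass (SE, adjusted p = 0.181 by limma), and none of the 6 measured metallothionein and metal-handling genes was called (median -0.06).

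Of the inflammatory genes, Chia was called. Chia, the acidic mammalian chitinase of airway epithelium and macrophages, had 6297 and 7385 in smoke, against 1493 in sham. Its sham arrays at 6 and 20 h (1798 and 1643) were also far below, and it rose by 2.15 ± 0.27 (SE, adjusted p = 0.0209 by limma). It was the only one of 11 measured acute inflammatory and mucosal defence genes to pass, against 0.135% of all genes called higher. Above all sham arrays lay 7 of the 11, against 14.1% of all genes, and below them 2, Nos2 and Icam1, against 15.9% (median 0.75). Lcn2, a siderophore-binding protein of epithelium and neutrophils, had 8968 and 9898 in smoke, against 3135 in sham (1.57 ± 0.32, SE, adjusted p = 0.172). C3, the central complement component, had 5495 and 6967 in smoke, against 3084 in sham (adjusted p = 0.284), and Sod2, the mitochondrial superoxide dismutase, 1686 and 2048 in smoke, against 1086 in sham (adjusted p = 0.406). All 3 of these genes were above every sham array at both smoke levels without passing the test.

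Cxcr1, a receptor for chemokines that draw neutrophils, was called and lay closest to the threshold. It had 503 and 542 in smoke, against 236 in sham, and sham read 230 at 6 h and 237 at 20 h. It rose by 1.002 ± 0.143 (SE, adjusted p = 0.0471 by limma). The other 2 measured neutrophil markers did not pass. S100a9, an abundant neutrophil granule protein, had 2300.1 and 2976 in smoke, against 968 in sham (1.39 ± 0.54, SE, adjusted p = 0.511). Its partner S100a8 had 378 and 375 in smoke, against 298 in sham, and was at 614 in sham at 20 h, so its groups overlapped.

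None of 15 measured chemokine and cytokine genes passed, and 10 of them lay above all sham arrays, against 14.1% of all genes, and 2 below, against 15.9% (median 0.36). The neutrophil-attracting chemokine Cxcl1 had 1342 and 1401 in smoke, against 521 in sham (1.32 ± 0.44, SE, adjusted p = 0.428 by limma). Cxcl2, of the same group, had 232 and 210 in smoke, against 83.5 in sham (adjusted p = 0.453). Ccl5, made largely by lymphocytes, had 2306 and 1860 in smoke, against 3206 in sham and 3091 and 3135 in sham at 6 and 20 h (-0.62 ± 0.21, SE, adjusted p = 0.43).

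All 19 measured macrophage and lysosome genes were above the 2 h sham array at both smoke levels, against 33.6% of all genes, and 16 of them above all sham arrays, against 14.1%, though none was called. The median difference was 0.62 at 2 h, 0.61 at 6 h and 0.57 at 20 h. In whole lung, more macrophages and more of these transcripts per cell cannot be told apart. The summed signal of the list was 76346 and 82479 in smoke, against 58129 in sham at 2 h and 62839 and 63363 in sham at 6 and 20 h. The lysosomal protease Ctsd had 8665 and 9762 in smoke, against 4825 in sham (0.92 ± 0.15, SE, adjusted p = 0.0776 by limma). Lgals3, a galectin secreted by macrophages, had 7249 and 7821 in smoke, against 4160 in sham (adjusted p = 0.0776). Both smoke arrays exceeded all sham arrays in each case.

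Gpnmb, a glycoprotein of lipid-laden macrophages, had 6342 and 6366 in smoke, against 2857 in sham (1.14 ± 0.24, SE, adjusted p = 0.172 by limma). Cd68, a lysosomal membrane protein used as a macrophage marker, had 2171 and 2468 in smoke, against 1147 in sham (adjusted p = 0.187). Ctsk, a collagen-cleaving protease, had 332 and 328 in smoke, against 110.1 in sham (adjusted p = 0.348). The part of these marker levels in the other differences was not tested.

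Spon2 and RT1-N2 were the genes called lower. Spon2, a secreted matrix protein of the spondin family, had 453 and 366 in smoke at 300 and 600 µg TPM/l, against 1346 in sham. All sham arrays were above, although sham varied between 788 at 6 h and 1525 at 20 h, and it fell by 1.61 ± 0.18 (SE, adjusted p = 0.0116 by limma). RT1-N2, a class I histocompatibility gene, had 64.5 and 118 in smoke, against 406 in sham, with 407 and 526 in sham at 6 and 20 h. It fell by 1.72 ± 0.22 (SE, adjusted p = 0.0209). Class I genes are a family of close copies, so which members this probe set measured is uncertain.

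Of the 17 measured matrix and fibroblast genes, Spon2 alone was called, 11 lay below the 2 h sham array at both smoke levels, against 36.9% of all genes, and 8 below all sham arrays, against 15.9% of all genes (median -0.18). Tnc, a matrix glycoprotein of remodelling tissue, had 163 and 128 in smoke, against 362 in sham (-1.08 ± 0.22, SE, adjusted p = 0.172 by limma). Wif1, a secreted inhibitor of WNT ligands, had 846 and 811 in smoke, against 1414 in sham (-0.74 ± 0.11, SE, adjusted p = 0.0626). For both genes the smoke arrays were below every sham array.

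All 6 measured NK and cytotoxic genes were below the 2 h sham array at both smoke levels, against 36.9% of all genes, 5 of them below all sham arrays, against 15.9%, and none was called (median -0.61). Their summed signal was 4289 and 3715 in smoke, against 6192 in sham at 2 h and 5645 and 5527 in sham at 6 and 20 h. Prf1, the pore-forming protein of cytotoxic granules, had 335 and 325 in smoke, against 639 in sham (-0.86 ± 0.13, SE, adjusted p = 0.0629 by limma). Its sham arrays of 6 and 20 h were lower, at 401 and 482. Against those 2 arrays the difference was -0.365 ± 0.122 (SE, adjusted p = 0.208 by limma). Nkg7, a granule membrane protein, had 390.4 and 354 in smoke, against 661 in sham (adjusted p = 0.181).

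Per2, a repressor of the circadian clock, was called but its sham level differed between times. It had 925 and 1076 in smoke, against 317 in sham, and sham read 732 at 6 h and 266 at 20 h. Both smoke arrays were above every sham array, and it rose by 1.51 ± 0.16 (SE, adjusted p = 0.0105 by limma). The call was lost with the sham arrays of all 3 times together (1.22 ± 0.29, SE, adjusted p = 0.0706). It was the 1 call among 13 measured clock genes, whose median was 0.13 at 2 h, -0.43 at 6 h and 0.62 at 20 h. Of the 13, 2 lay above all sham arrays, against 14.1% of all genes, and 0 below, against 15.9%.

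Dbp, a clock output factor, had 415 and 446 in smoke, against 189 in sham, and sham read 1303 at 6 h and 120 at 20 h. Nr1d1, the nuclear receptor REV-ERB alpha that represses Bmal1, had 649 and 526 in smoke, against 778 in sham, with 1522 and 179 in sham at 6 and 20 h. Bmal1, the partner of CLOCK, had 228 and 172 in smoke, against 237 in sham, with 132 and 331 at the other times. The smoke arrays of these 3 genes lay within the span of the sham arrays (adjusted p = 0.536, 0.883 and 0.876 by limma). Bhlhe41 had 962 and 1012 in smoke, against 517 in sham, with 617 and 395 in sham at 6 and 20 h (adjusted p = 0.196). With the sham arrays of all 3 times together it was called (0.91 ± 0.18, SE, adjusted p = 0.0331 by limma). Per1 was lower in smoke, with 222.5 and 366 against 409 in sham, and sham read 628 and 317 at 6 and 20 h (adjusted p = 0.7). The hour of dissection is not given in the sources used here. The E-box CACGTG that CLOCK and BMAL1 bind was found in 2 of 8 promoters of the named clock genes and in 6.42% of all promoters, and not in that of Per2.

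For the called probe sets of Epas1 and Xylt2 the 2 h sham array was the lowest of the 9 arrays. The Epas1 probe set, which is not the brightest of its gene and was taken up after its values were seen, had 3674 and 3929 in smoke, against 1759 in sham. Epas1, a hypoxia-inducible factor subunit rich in lung endothelium, read 3707 and 3958 in sham at 6 and 20 h, which are the levels of the smoke arrays. The brighter Epas1 probe set had 9142 and 8800 in smoke, against 8597 in sham (0.06, adjusted p = 0.908 by limma). Xylt2, which starts proteoglycan chains, had 500 and 458 in smoke, against 195 in sham, and 554 and 527 in sham at 6 and 20 h. Its 2 other, dimmer probe sets on type A went the other way, at -0.397 and -0.105 (adjusted p = 0.414 and 0.937 by limma). For the called probe sets the fitted differences were 1.09 ± 0.11 for Epas1 (SE, adjusted p = 9.07e-03) and 1.11 ± 0.13 for Xylt2 (SE, adjusted p = 0.0178). Against the sham arrays of 6 and 20 h they were -0.012 and -0.16.

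Cytl1, a secreted cytokine-like protein, had 1334 and 1300.1 in smoke, against 599.5 in sham and 594 and 456 in sham at 6 and 20 h. The groups did not overlap, and it rose by 1.07 ± 0.12 (SE, adjusted p = 0.0145 by limma). At least 2-fold off the 2 h sham array at both levels were 25 probe sets, 21 higher (0.208%) and 4 lower (0.0395%), of which 14 were called. Among those not called were Ooep and the cardiac myosin-binding gene Mybpc3. Ooep had 310.4 and 273 in smoke against 1108 in sham (-1.76 ± 0.31, SE, adjusted p = 0.109 by limma), with 828 and 589 in sham at 6 and 20 h. Mybpc3 had 250 and 167 in smoke against 29.8 in sham, but 266 and 305 in sham at 6 and 20 h.

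None of 15 measured immediate early genes was called, while 13 lay above the 2 h sham array at both smoke levels, against 33.6% of all genes, and 9 above all sham arrays, against 14.1% (median 0.26 at 2 h, -0.11 at 6 h and -0.05 at 20 h). Ier3, a survival gene induced by stress, had 1196 and 1158 in smoke, against 684 in sham (0.74 ± 0.14, SE, adjusted p = 0.11 by limma). Ccn2, a matricellular growth factor, had 5179 and 5831 in smoke, against 3415 in sham (adjusted p = 0.179), and the growth regulator Myc had 338 and 399 in smoke, against 171 in sham (adjusted p = 0.187). These 3 genes were above all sham arrays at both smoke levels. Egr1, a growth-factor-induced zinc finger factor, had 1041 and 1133 in smoke, against 581 in sham, but 1208 and 996 in sham at 6 and 20 h.

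Of the epithelial and endothelial lists no member was called. The median was 0.07 for 9 alveolar type 2 and surfactant genes, -0.03 for 7 alveolar type 1 genes, -0.34 for 5 club and secretory airway genes, 0.38 for 3 ciliated cell genes and -0.11 for 10 endothelial genes. Of the 10 endothelial genes, 5 lay below and 3 above the 2 h sham array at both smoke levels, against 36.9% and 33.6% of all genes. Below all sham arrays lay 3 of them, against 15.9% of all genes, and above all sham arrays 1, against 14.1%. Among those below, the gap junction gene Gja4 had 760 and 608 in smoke, against 1270 in sham (-0.85 ± 0.20, SE, adjusted p = 0.201 by limma). Emcn, an endothelial sialomucin, had 1086 and 1177 in smoke, against 1594 in sham (adjusted p = 0.274). Cyp2f4, a P450 of club cells, had 355 and 590.4 in smoke, against 996 in sham (-1.04 ± 0.30, SE, adjusted p = 0.329). Each of these 3 was below every sham array at both smoke levels. The surfactant gene Sftpc, which defines alveolar type 2 cells, had 16421 and 16616 in smoke, against 15855 in sham, and the club cell gene Scgb1a1 13548 and 14413 in smoke, against 13321, so the lung label was borne out by its markers. The 2 cardiac muscle genes measured summed to 420.3 and 356 in smoke, against 656 in sham at 2 h and 548 and 348 in sham at 6 and 20 h, and their part in the results was not tested.

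**Figure D3:**
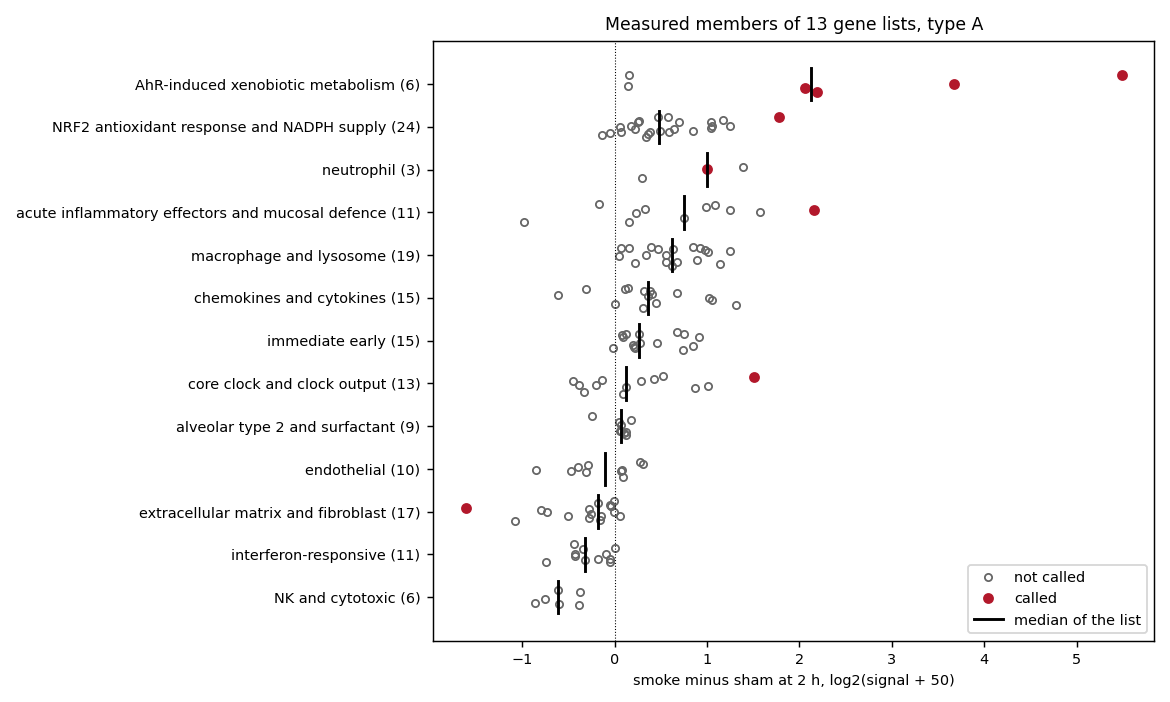
Each point is 1 measured gene of 13 lists on type A, with its difference of smoke minus sham at 2 h on the x axis, filled red where called and open where not; black bars are list medians and the number of genes stands behind each list name. The AhR list has 4 of 6 genes called, whereas the macrophage and NK lists lie on opposite sides of 0 (medians 0.62 and -0.61) with no call.

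The 15 called probe sets were chosen by their difference at 2 h, which favours a larger difference at 2 h than at the other times. It was larger than at 6 h for 14 of them and larger than at 20 h for all 15. The share over all probe sets was not counted, so nothing about time is drawn from these counts. Cyp1a1 had 2789 and 2122 in smoke, against 111 in sham, at 6 h, and 209 and 207 in smoke, against 102 in sham, at 20 h. Its difference was thus 5.49 at 2 h, 3.95 at 6 h and 0.77 at 20 h. Aldh3a1 had 270 and 232 in smoke, against 86.8 in sham, at 6 h, and 107 and 63.0 in smoke, against 89.8 in sham, at 20 h, where the groups overlapped. For Nqo1 the difference was 2.06 at 2 h, 1.30 at 6 h and 0.12 at 20 h, and for Cyp1b1 2.19, 0.63 and 0.32. Chia kept most of its size, with 1.93 at 6 h and 1.83 at 20 h.

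A direct test of the change in smoke effect between 2 h and 6 h made no call with limma, while 832 of 10115 probe sets had an unadjusted p under 0.05. Between 2 h and 20 h it called 4 probe sets (0.0395%), those of Cyp1a1, Aldh3a1, Nqo1 and Epas1. For Cyp1a1 the effect was larger at 2 h by 4.72 ± 0.23 (SE, adjusted p = 1e-04 by limma), for Aldh3a1 by 3.74 ± 0.37 (adjusted p = 0.0199), for Nqo1 by 1.95 ± 0.21 (adjusted p = 0.0261). Taken alone, 6 h gave 3 calls (0.0297%), Cyp1a1, Nqo1 and a Ugt1a probe set, and 20 h none by limma (679 at an unadjusted p under 0.05). The fall in the AhR list median, 2.13 at 2 h, 0.88 at 6 h and 0.24 at 20 h, was not tested as such.

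**Figure D4:**
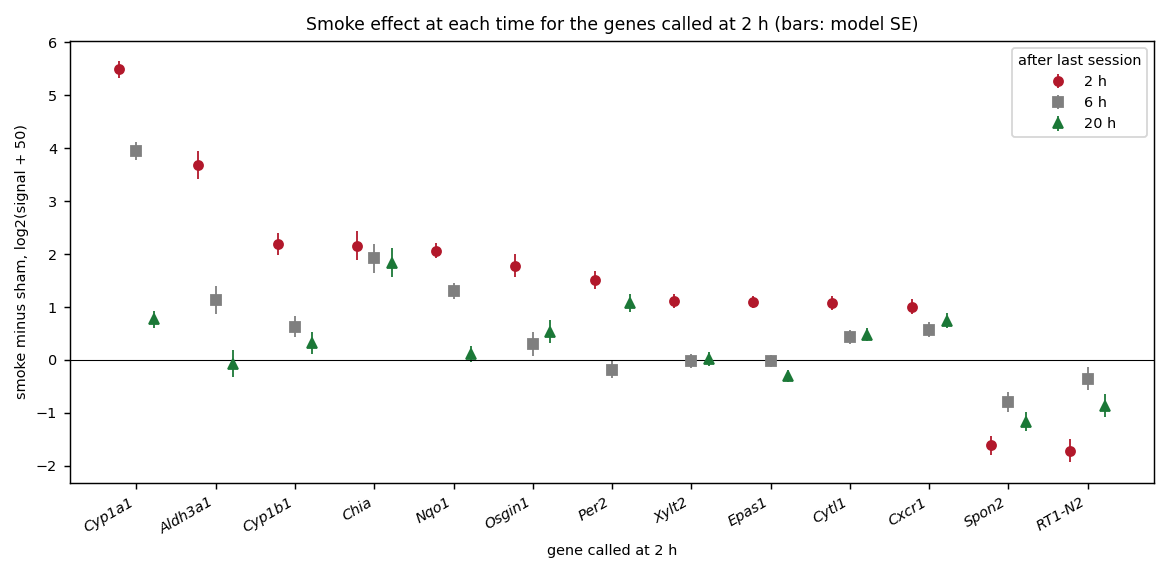
Difference of smoke minus sham in log2(signal + 50) for the 13 genes called at 2 h, with the 2 h (red circles), 6 h (grey squares) and 20 h (green triangles) values side by side and model SEs as bars. Cyp1a1, Aldh3a1, Cyp1b1 and Nqo1 step down with time, and Chia stays between 1.83 and 2.15.

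Of the 15 called probe sets, 12 lay farther from sham at 600 than at 300 µg TPM/l. The share over all probe sets tested was not counted, so the 12 are not read as a dose pattern. The step between levels was small beside the step from sham. It was 0.10 for Cyp1a1 on the log2 scale, 0.50 for Aldh3a1, 0.32 for Nqo1, 0.43 for Cyp1b1 and 0.57 for Osgin1. For RT1-N2, Cytl1 and Xylt2 the 300 µg TPM/l array was the farther one. With 1 array per level at 2 h these steps have no test.

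Setting smoke at 2 h against the sham arrays of all 3 times together gave more calls, 80 higher (0.791%) and 67 lower (0.662%), of which 12 were among the 15. In that fit 61 of 7433 genes were called higher (0.821%) and 52 lower (0.7%). Among the NRF2 genes 10 of 24 were then called higher, among them Akr1b8, Gclc, Gclm, Hmox1 and Srxn1. The same held for 7 of 19 macrophage genes, including Cd68, Ctsd, Ctsk, Gpnmb and Lgals3, and for 5 of 11 acute inflammatory genes, including C3, Lcn2 and Sod2. Of the matrix genes 4 of 17 were called lower, Spon2, Wif1, Tnc and Col5a2. In this comparison recovery time differs between the groups as well as smoke, and their parts cannot be told apart.

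Type B gave no call by limma among 10100 probe sets (0%), and 158 had an unadjusted p under 0.05. Its array labelled sham at 2 h stood close to the array of 300 µg TPM/l at 2 h: the deviations of the 2 arrays from the mean array correlated at r = 0.55 across probe sets, while no other of 36 pairs on type B was above 0.12, and it was -0.16 between the same conditions on type A. Of the 46 probe sets at least 2-fold off that array at both levels, 38 higher (0.376%) and 8 lower (0.0792%), only 5 were so against each of the 3 sham arrays, 1 higher (0.0099%) and 4 lower (0.0396%). One of these 5 has a gene symbol, Slc25a23, a mitochondrial ATP-Mg/phosphate carrier, with 77.5 and 73.0 in smoke, against 229 in the array labelled sham at 2 h and 385 and 358 in sham at 6 and 20 h (-1.16 ± 0.38, SE, adjusted p = 1 by limma). Its dim type A probe set did not show the fall, with 239 and 157 in smoke, against 160.5 in sham at 2 h (0.216, adjusted p = 0.871 by limma).

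Ahrr, the AhR repressor that AhR itself switches on is measured on type B only. It had 839 and 533 in smoke at 2 h, against 885 in the array labelled sham at 2 h. All 6 arrays of 6 and 20 h were lower, with 163 to 264 in smoke and 198 and 233 in sham. Its difference was -0.38 ± 0.32 with the array labelled sham at 2 h (SE, adjusted p = 1 by limma) and 1.44 against the sham arrays of 6 and 20 h (adjusted p = 0.0752). The direction for this gene is therefore not settled.

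Against the sham arrays of 6 and 20 h, 6 type B probe sets were called, 4 higher (0.0396%) and 2 lower (0.0198%), among them those of Plet1, Tmem26 and Hmcn1, which were picked out after their values were seen. Plet1, a surface protein of progenitor epithelium that is measured on both types, had 2136 and 2517 in smoke on type B, against 2202 in the array labelled sham at 2 h and 1067 and 968 in sham at 6 and 20 h. On type A Plet1 had 2077 and 2647 in smoke, against 1081 in sham at 2 h and 740 and 1034 in sham at 6 and 20 h. Hmcn1, an extracellular matrix protein, had 974 and 800.3 in smoke, against 1026 in the array labelled sham at 2 h and 2379 and 1848 in sham at 6 and 20 h. Tmem26 had 1103 and 876 in smoke, against 1038 in that array and 290 and 340.4 in sham at 6 and 20 h. On type B the array labelled sham at 2 h was at the level of the smoke arrays for these 3 genes, which for Plet1 it was not on type A. Recovery time differs in this comparison as well as smoke, and their parts cannot be told apart. A further called probe set, without a gene symbol, had 2645 and 2628 in smoke at 2 h and 2742 in the array labelled sham at 2 h. It had 584 to 1281 in all arrays of 6 and 20 h, smoke included. Npas2, a clock factor related to CLOCK and measured on type B only, had 833 and 467 in smoke, against 944 in the array labelled sham at 2 h and 415 and 1305 in sham at 6 and 20 h.

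**Figure D5:**
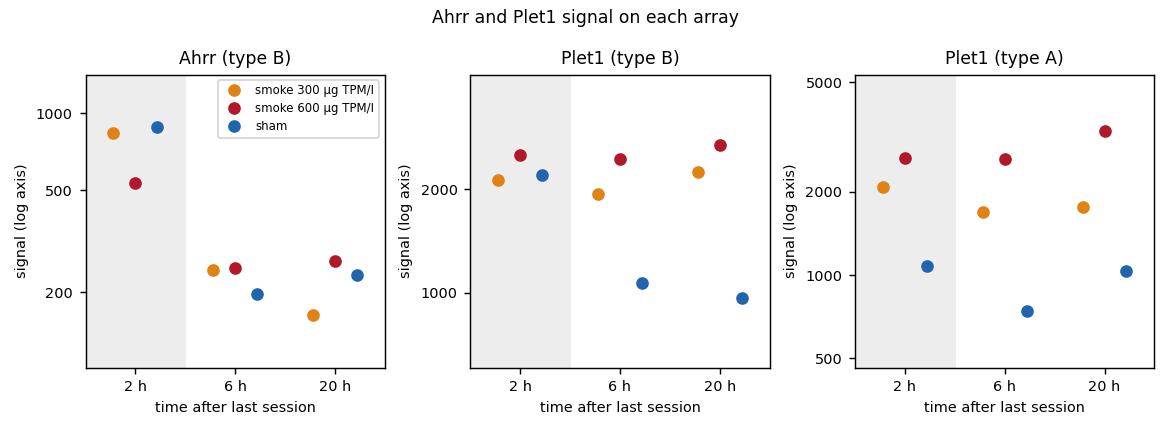
Signal on a log axis of Ahrr on type B and of Plet1 on types B and A, with time after the last session on the x axis and smoke at 300 µg TPM/l (orange), smoke at 600 µg TPM/l (red) and sham (blue) side by side; each point is 1 array. On type B the array labelled sham at 2 h reads 885 for Ahrr and 2202 for Plet1, and on type A it reads 1081 for Plet1, below both smoke arrays.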

How the data were processed

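Biotin-labelled cRNA made from lung RNA was hybridised to Affymetrix arrays of 2 types, per the labels. The deposited intensity values are linear signals per probe set. The authors made them with MAS5 (its version is not given), as the submitters' processing notes state. Each array has the same mean after trimming 2% at each end (500.1 on type A and B), so the authors' scaling was kept. Samples were grouped by title. At 20 h the exposure field of 4 smoke samples reads sham, against their titles. Conditions have no replicates, so the p-values reflect only the spread between the smoke levels within each time. That spread can mix dose, animal and technical differences and holds none between sham arrays. Precision is limited by how few arrays there are.

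Signals were taken as log2(signal + 50), and probe sets at or above the 40th percentile in at least 2 of 9 arrays were kept, leaving out 57 control probe sets per type. A probe set dim in 1 group could thus pass through the other group alone, which favours a difference. On type A this held for Cyp1a1, Aldh3a1, Gsta3, Cxcl2, Ccl2, Ctsk and Tnc, among others. Such genes stay in the list counts, and the shares over all genes were taken after the same filter. A linear model was fitted with limma 3.58.1 (R 4.3.3; eBayes with an intensity trend) to the 9 arrays of each type with a mean for smoke (both levels) and for sham at each time, 3 residual degrees of freedom, two-sided tests and Benjamini-Hochberg adjustment within the type. On simulated data with 200 changed genes the fit was tested before use. The noise of all simulated arrays, sham included, came from the spread between smoke levels. The simulation therefore could not test the lack of sham replicates. Of 15923 probe sets on type A, 12789 had 1 gene symbol, 312 several and 2822 none in the platform annotation, updated through Entrez identifiers. On type B, with 15333 probe sets, the numbers were 7570, 100 and 7663. For 33 gene lists the brightest probe set of a gene on type A was used, and members measured on type B only were kept apart, although the brightest over both types had been planned.

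The members, gene lists, tests and rule for named genes were chosen with earlier results of these data known. The text draws on the genes called, further genes at least 2-fold off sham, and up to 4 members of each list by p. It also draws on a standing list and on genes whose smoke effect differed between times. The standing list held AhR, NRF2, clock, inflammatory, macrophage, neutrophil, metallothionein, immediate early and glucocorticoid-responsive genes, among others. Genes outside this rule are marked in the text, besides Cyp2s1, Sftpc, Scgb1a1, Nos2, Icam1 and Col5a2, which were also taken up after their values were seen. Alternatives were quantile normalization, median scaling, pseudocounts of 12.5 and 200, other filters, no trend, adjustment over both types, the fit without 6 or 20 h, a model with sham spread, other sham arrays, each smoke array left out, and a 1.5-fold limit.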

Additional observations from a re-analysis of the deposited data

Results flagged for a closer look

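The smoke effect on 4 probe sets differed between 2 h and 20 h by limma's test of the difference itself. Cyp1a1 was 4.72 (log2) higher relative to sham at 2 h than at 20 h, Aldh3a1 3.74, Nqo1 1.95 and the Epas1 probe set 1.40 (adjusted p = 1e-04, 0.0199, 0.0261 and 0.0342). For Cyp1a1, Aldh3a1 and Nqo1 the smoke arrays were higher at 2 h while sham differed little between times. For Epas1 smoke had 3674 and 3929 at 2 h and 3051 and 3317 at 20 h, while sham had 1759 at 2 h and 3958 at 20 h.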

How the results depend on the processing

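The count of 15 type A calls stayed within 1.5 times under 11 alternatives, and was 4 with no filter, 147 with the sham arrays of all 3 times, 106 with those of 6 and 20 h only (11 shared with the 15), and 5 to 6 without 1 smoke array, where the lone smoke array is assumed to vary like the other groups. Among the 4 calls for 2 h against 20 h, 2 were left with median scaling, no trend or adjustment over both types, and 1 with no filter or without the 6 h conditions. The 25 probe sets at least 2-fold off sham became 41 and 15 with the smaller pseudocount and with 200, 47 with no filter, and 159 at 1.5-fold. Type B gave 1 call with adjustment over both types, 6 with the sham arrays of 6 and 20 h only, and 0 to 1 without 1 smoke array. Cyp1a1, Aldh3a1 and Nqo1 were called under all 16 alternatives, Cyp1b1 under 15 and Cxcr1 under 8. With the sham arrays of 6 and 20 h only, the difference changed sign for Xylt2 (-0.16 ± 0.11, SE), Mybpc3 (-0.39 ± 0.28) and Ahrr (1.44 ± 0.27). Ahrr also changed sign with all 3 (0.84 ± 0.47). For Epas1 (-0.012 ± 0.093), Egr1 (-0.014 ± 0.169), Tiparp (-0.007 ± 0.109) and Nr1d1 (0.08 ± 0.71) the sign changed too. Those values were smaller than their SEs, so they show no difference and no opposite direction. Apart from the sham arrays themselves, the cause was not tested. No paired analysis was possible because each condition has 1 array. Dim probe sets near the filter are limited by signal over background, and no detection calls were used here.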
